A study of Sus scrofa with 16 samples.

Results

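The genes described here are those of the proteasome, 38 of the 25880 genes in the count table. They were chosen by symbol, as all genes that the deposited comparison names with a PSMA, PSMB, PSMC, PSMD, PSME, PSMF or PSMG symbol followed by a digit, and they had to reach 10 counts in 8 or more pigs. All 38 reached this minimum in all 16 pigs and passed the filter on low counts, which left 13621 genes for the test. Their counts lay between 26 and 3427 reads per gene and pig.

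RNA of whole pituitaries of 16 female pigs of the native Polish breed Złotnicka White was sequenced, 8 gilts with low feed conversion (LFC) and 8 with high feed conversion (HFC), where a low value means less feed per unit of gain. All the gilts carried the label of day 180, were kept at a pig test station on the same feed and in the same housing, and were slaughtered at about 100 kg. The animals were unrelated and came from different farms, so each pig was 1 replicate. The design asks which pituitary genes differ between gilts of high and low feed conversion. The libraries held from 6010629 to 11794256 reads counted on genes. Expression is given in CPM, the count of a gene relative to the TMM-scaled size of the library, and a positive log2 fold change means a higher level in the HFC pigs. CPM was compared within a gene only, because it does not take the length of a transcript into account.

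The hormone genes of the anterior lobe marked the tissue as labelled. The prolactin gene PRL had between 15501 and 112503 CPM in the 16 pigs, and the growth hormone gene GH1 between 23064 and 85944 CPM. Genes of posterior lobe glia and myelin, of which 4 of 7 were tested, summed to between 179 and 5988 CPM. Markers of some pituitary cell types lay at different levels in the groups, without a call in edgeR. The median of PRL was 26356 CPM for LFC and 67011 CPM for HFC, and its log2 fold change of 1.27 had adjusted p of 0.372 in edgeR and 0.00892 in DESeq2. POMC, the hormone precursor of corticotrophs, ran from 15515 to 83136 CPM (LFC) and from 8587 to 25685 CPM (HFC), a log2 fold change of -1.23 with adjusted p of 0.383 in edgeR and 0.0364 in DESeq2. CGA, the shared subunit of gonadotropins and thyrotropin, was at -0.56 and GH1 at 0.04. The 4 endothelial markers were all higher in the HFC pigs, at a median of 0.36, and summed to between 94.9 and 144 CPM (LFC) and between 79.6 and 225 CPM (HFC). The part of these cell types in the proteasome values was not tested. In such bulk tissue, fewer cells of a type and less RNA per cell cannot be told apart.

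The proteasome is the protease that degrades proteins marked with ubiquitin in the cytosol and nucleus of every cell. Its core particle is a barrel of outer rings of alpha subunits, which gate the entrance, and inner rings of beta subunits, some of which cut the substrate. A regulatory particle on its end holds a ring of ATPases that unfold substrates and a lid that removes ubiquitin, and other activators can take its place. In endocrine cells it is known for the disposal of misfolded hormone precursors that are sent back from the endoplasmic reticulum.

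No proteasome gene passed the test between the feed conversion groups, and most of them lay slightly lower in the HFC pigs. With the limits of 0.05 for the adjusted p (edgeR's quasi-likelihood test, Benjamini-Hochberg adjustment) and 1.3 for the fold change, 0 of the 38 genes were called, as were 0% of all genes tested. The smallest adjusted p was 0.413 among the proteasome genes and 0.372 among all genes. Without adjustment, 5 of the 38 genes had a p of at most 0.05, against 1559 genes or 11.4% of all genes tested, and 0 of the 38 had a p of at most 0.01, against 2.28%. Of the 5, the 4 genes PSMB1, PSMB2, PSMD4 and PSMD10 were lower in the HFC pigs, a direction with 4.41% of all genes, and PSME4 was higher, with 7.03%. DESeq2 called 0 of the 38 genes, against 29 genes or 0.213% of all genes, and limma voom with sample quality weights called 0 of the 38 and 0% of all genes. Without adjustment, DESeq2 had 5 of the 38 genes at a p of at most 0.05 (13% of all genes) and the weighted limma voom fit 10 of the 38 (18.6%).

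The log2 fold changes of the 38 genes ran from -0.29 to 0.27, with standard errors from 0.071 to 0.23. Below 0 were 32 of them (84.2%), against 52.1% of all genes tested. Their median was -0.17, and that of all genes was -0.01. No proteasome gene reached a fold change of 1.3 in either direction, whereas 9.93% of all genes did. For 14 of the 38 genes the 95% interval lay wholly within a 1.3-fold change, against 32% of all genes. In each of the 38 genes the values of the groups overlapped, as they did in all but 0.00734% of the genes tested.

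**Figure D1:**
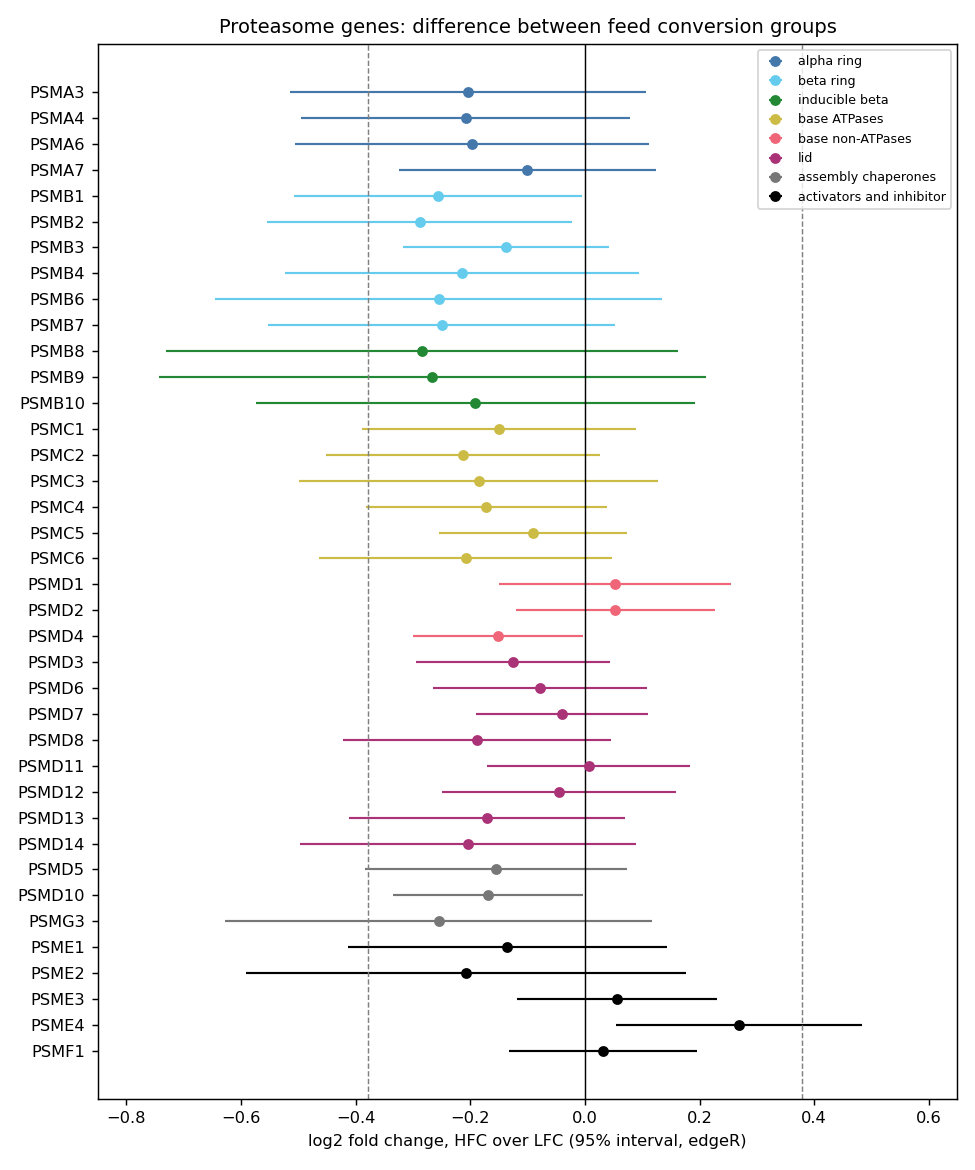
Log2 fold change (HFC over LFC, horizontal axis) of the 38 proteasome genes, with 95% intervals from edgeR and colours for the roles of the subunits. Dashed lines mark a 1.3-fold change. Values lie left of 0 for 32 genes, and no point passes a dashed line.

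The alpha ring was represented by PSMA3, PSMA4, PSMA6 and PSMA7, 4 of its 8 genes. Their log2 fold changes were all below 0, from -0.21 to -0.10 with a median of -0.20, and unadjusted p ran from 0.144 to 0.359. PSMA4 had between 56.0 and 97.6 CPM in the LFC pigs with a median of 68.8. In the HFC pigs it had between 49.2 and 96.2 CPM with a median of 59.3. The upper end of the HFC range was HFC pig 5, the next HFC pig had 62.9 CPM, and 7 of the 8 HFC pigs lay below the LFC median. The log2 fold change of PSMA7 was the smallest of the ring, at -0.10 ± 0.11 (SE).

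PSMB2 of the constitutive beta ring had the lowest log2 fold change of the 38 genes. Of its 7 genes 6 were among the 38, and all 6 were below 0, with a median of -0.25, and PSMB1 and PSMB2 were its genes with an unadjusted p up to 0.05. PSMB2, a structural beta subunit without a catalytic site (chromosome 6, 91791993 to 91830559 on Sscrofa11.1, as for all positions here), had between 56.2 and 91.8 CPM in the LFC pigs with a median of 67.2. In the HFC pigs it had between 44.6 and 82.9 CPM with a median of 58.7. All but 1 of the HFC pigs were below the LFC median, while HFC pig 5 was above most LFC pigs. The log2 fold change of PSMB2 was -0.29 ± 0.13 (SE), with a 95% interval from -0.56 to -0.02 and an adjusted p of 0.428 (edgeR, Benjamini-Hochberg).

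PSMB1, also without a catalytic site (chromosome 1, 23368 to 40113), had between 100.4 and 165 CPM in the LFC pigs with a median of 121. In the HFC pigs the range was 79.1 to 135 CPM with a median of 101. Here too 7 of the 8 HFC pigs lay below the LFC median, and the groups overlapped between 100.4 and 135 CPM. The log2 fold change was -0.26 ± 0.12 (SE), at an adjusted p of 0.433 (edgeR, Benjamini-Hochberg).

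PSMB6 and PSMB7 are constitutive catalytic subunits, with caspase-like and trypsin-like activity. PSMB6 (chromosome 12, 52094191 to 52098267) had between 90.6 and 214 CPM (median 129.8) in the LFC pigs. In the HFC pigs it had between 84.6 and 196 CPM with a median of 106. PSMB7 had between 89.97 and 153 CPM (median 113) in the LFC pigs and between 71.0 and 156 CPM (median 94.3) in the HFC pigs. For both genes 7 of 8 HFC pigs were below the LFC median, and 1 pig in the HFC group, HFC pig 5, was far above the other 7. Both log2 fold changes were -0.25, with standard errors of 0.19 and 0.14, and the adjusted p was 0.535 for PSMB6 and 0.471 for PSMB7 (edgeR, Benjamini-Hochberg). The value of PSMB6 was -0.11 without LFC pig 4 and -0.39 without HFC pig 5, and that of PSMB7 was -0.17 and -0.35. PSMB5, the chymotrypsin-like subunit, was not analysed here.

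**Figure D2:**
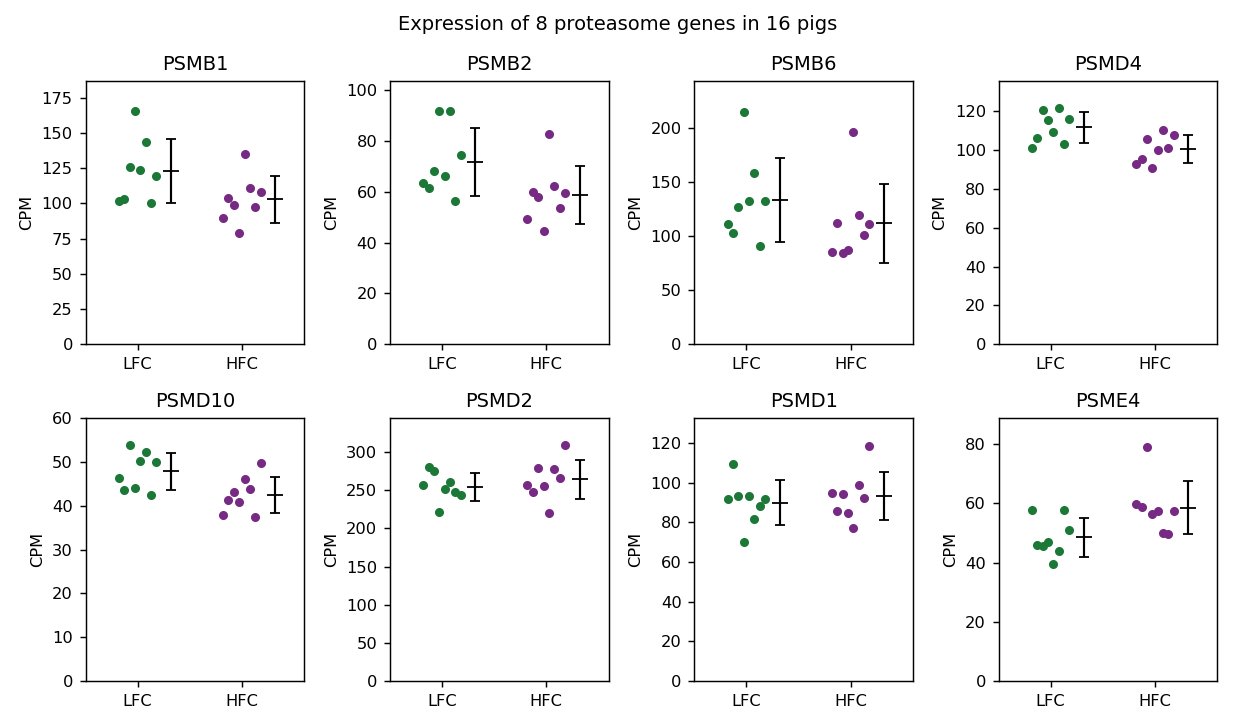
CPM (vertical axis, from 0) of 8 proteasome genes in the LFC (green) and HFC (purple) pigs, 1 point per pig, with bars for the mean ± SD of 8 pigs. The groups overlap in every panel. In PSMB6 the highest pig of each group, at 214 and 196 CPM, stands above the other pigs, and in PSME4 all HFC pigs lie above 49 CPM.

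PSMB8, PSMB9 and PSMB10 are the catalytic subunits that interferon induces and that replace the constitutive ones in the immunoproteasome, which shapes the peptides shown by MHC class I molecules. All 3 log2 fold changes were below 0, with unadjusted p from 0.199 to 0.309. PSMB8 (chromosome 7, 25053132 to 25073046) had between 10.4 and 32.6 CPM (median 15.7) in the LFC pigs and between 9.91 and 21.4 CPM (median 14.2) in the HFC pigs. PSMB9 had between 5.32 and 12.8 CPM (median 7.65) in the LFC pigs and between 4.00 and 10.7 CPM (median 6.74) in the HFC pigs. PSMB10 had between 24.4 and 50.2 CPM (median 35.2) in the LFC pigs and between 21.8 and 49.6 CPM (median 27.3) in the HFC pigs. The groups overlapped almost fully in all 3 genes. The log2 fold changes were -0.28 for PSMB8, -0.27 for PSMB9 and -0.19 for PSMB10, with standard errors of 0.21, 0.23 and 0.18. Without LFC pig 4 they were -0.077, -0.13 and -0.087. At the other end they reached -0.36 for PSMB8 without LFC pig 2, -0.38 for PSMB9 without HFC pig 6 and -0.28 for PSMB10 without HFC pig 5. The span of PSMB8 shares 9268 bases with TAP1, 3732 bases with TAP2 and 1335 bases with PSMB9, introns included. Whether exons coincide there was not measured, and reads from coinciding exons cannot be assigned without strand.

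The balance of inducible and constitutive catalytic subunits was compared within each pig, as the mean log2(CPM + 1) of PSMB8, PSMB9 and PSMB10 minus that of PSMB6 and PSMB7. The ratio was between -3.13 and -2.54 in the LFC pigs and between -3.24 and -2.35 in the HFC pigs. Its means were -2.79 ± 0.19 (SD, n = 8) and -2.76 ± 0.34 (SD, n = 8), which gave a difference of 0.03 with an exact two-sided permutation p of 0.821. HFC pigs were found both above and below the range of the LFC pigs.

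LFC pig 4 was set apart by interferon-induced genes. IFI6, an interferon-induced membrane protein gene, had 2156 CPM in this pig and between 57.5 and 151 CPM in the other 15, and the ubiquitin-like modifier ISG15 had 136 CPM against 6.41 to 44.8 CPM. PSMB8 was highest in the same pig, at 32.6 CPM, but so were PSMB6, at 214 CPM, and PSMB10, at 50.2 CPM. The inducible to constitutive ratio of LFC pig 4 was -2.66, within the range of the other LFC pigs. Of the list of 17 interferon-induced genes, 15 were tested, of which 12 were lower and 3 higher in the HFC pigs, against 52.1% of all genes lower. At an unadjusted p of at most 0.05 (edgeR) were 3, all lower (IFI6, IFI44 and ISG15), a direction with 4.41% of all genes. None was called. The medians for LFC and HFC were 106 and 97.6 CPM in IFI6, and 23.1 and 17.5 CPM in ISG15. The median log2 fold change of the list was -0.18. The value of IFI6 was -1.79 in edgeR and 0.03 in DESeq2. In DESeq2 the unadjusted p was 0.901 for IFI6, 0.0113 for IFI44 and 0.0317 for ISG15.

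**Figure D3:**
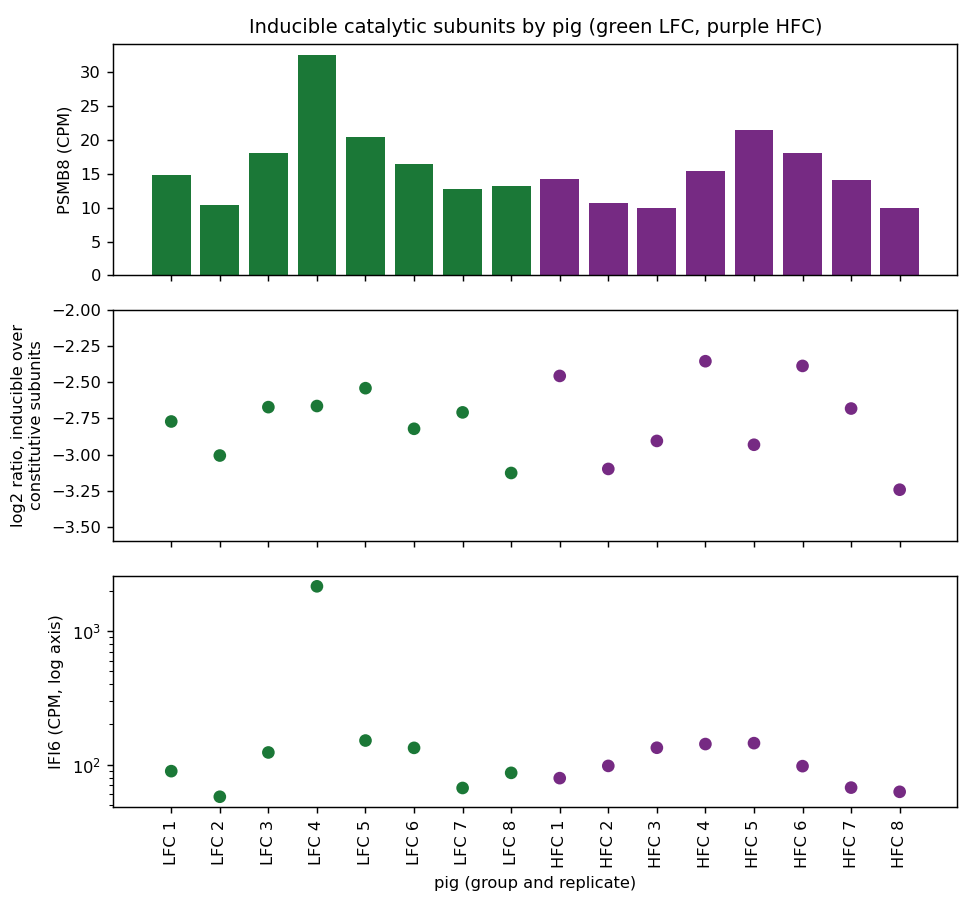
PSMB8 in CPM (top, bars from 0), the log2 ratio of inducible to constitutive catalytic subunits (middle) and IFI6 in CPM on a log axis (bottom) in each of the 16 pigs, LFC green and HFC purple. LFC pig 4 has the highest PSMB8 (32.6 CPM) and IFI6 (2156 CPM), while its ratio (-2.66) lies among those of the other pigs.

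The ATPases of the base, PSMC1 to PSMC6, unfold substrates and thread them into the core. All 6 were below 0, with a median log2 fold change of -0.18 and unadjusted p from 0.0775 to 0.264. PSMC2 had between 84.0 and 126 CPM (median 96.2) in the LFC pigs and between 68.1 and 122 CPM (median 84.8) in the HFC pigs. It had the lowest p of the group, with a log2 fold change of -0.21 ± 0.11 (SE) at an adjusted p of 0.455 (edgeR, Benjamini-Hochberg). PSMC5 was the most even of the ATPases, with 212 to 227 CPM in the LFC pigs and 174 to 239 CPM in the HFC pigs. Its whole span, 6167 bases, is shared with FTSJ3, which had a median count of 979.5 against 1780 for PSMC5.

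The other subunits of the base among the 38 genes had values on both sides of 0. PSMD4, a receptor for ubiquitin chains (chromosome 4, 97994084 to 98004716), had between 101 and 122 CPM (median 113) in the LFC pigs and between 91.0 and 110.4 CPM (median 101) in the HFC pigs. All 8 HFC pigs lay below the LFC median, and this gene had the smallest spread between pigs of a group among the 38, an SD of 0.10 on the log2 scale. Its log2 fold change was -0.15 ± 0.071 (SE), at an adjusted p of 0.433 (edgeR, Benjamini-Hochberg).

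PSMD1 and PSMD2 are the large scaffold subunits of the base, to which ubiquitin receptors and shuttle proteins bind. PSMD2 had between 222 and 280.2 CPM (median 254) in the LFC pigs and between 220.0 and 309 CPM (median 262) in the HFC pigs. PSMD1 had between 69.9 and 109 CPM (median 91.9) in the LFC pigs and between 77.0 and 118 CPM (median 93.3) in the HFC pigs. In both genes the groups had nearly the same levels. Both log2 fold changes were 0.05, and the 95% intervals ran from -0.12 to 0.23 for PSMD2 and from -0.15 to 0.25 for PSMD1.

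Among the 38 genes, the 8 of the lid, which carries the deubiquitinase PSMD14, had log2 fold changes from -0.20 to 0.01 with a median of -0.10. Below 0 were 7 of them, and the unadjusted p of the 8 ran from 0.108 to 0.940. PSMD14 was lowest, at -0.20 ± 0.14 (SE). PSMD11 was closest to 0, at 0.01 ± 0.084 (SE).

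Of the assembly chaperones, which are not part of the finished particle, 3 of 7 genes were among the 38. PSMD10, also known as gankyrin and a chaperone of the base (chromosome X, 88536446 to 88548688), had between 42.4 and 53.9 CPM (median 48.3) in the LFC pigs and between 37.5 and 49.7 CPM (median 42.3) in the HFC pigs. HFC pigs lay below the LFC median in 7 of 8 cases, and the upper part of their range overlapped with the LFC pigs. The log2 fold change was -0.17 ± 0.079 (SE), at an adjusted p of 0.433 (edgeR, Benjamini-Hochberg). PSMD10 shares 4717 bases with ATG4A. PSMG3 and PSMD5, chaperones of the core and of the base, had log2 fold changes of -0.25 and -0.16.

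The activators differed most among themselves. PSME4, also called PA200, is a large nuclear activator that opens the core without ubiquitin and is known for the degradation of acetylated histones. It lies on chromosome 3, 87231534 to 87337703. In the LFC pigs PSME4 had between 39.6 and 57.9 CPM with a median of 46.4, and in the HFC pigs between 49.8 and 78.9 CPM with a median of 57.4. All 8 HFC pigs lay above the LFC median, and the groups overlapped between 49.8 and 57.9 CPM. The log2 fold change was 0.27 ± 0.10 (SE), with a 95% interval from 0.05 to 0.48, an unadjusted p of 0.0170 and an adjusted p of 0.413 (edgeR, Benjamini-Hochberg). In DESeq2 its adjusted p was 0.277.

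PSME1 and PSME2 form the interferon-induced PA28 activator. PSME1 had between 123 and 225 CPM (median 152) in the LFC pigs and between 116 and 209 CPM (median 140.1) in the HFC pigs. PSME2 had between 41.4 and 101 CPM (median 60.3) in the LFC pigs and between 43.0 and 98.5 CPM (median 49.0) in the HFC pigs. The log2 fold changes were -0.13 and -0.21, with standard errors of 0.13 and 0.18 and unadjusted p of 0.322 and 0.270. They were -0.030 and -0.062 without LFC pig 4, and -0.20 and -0.35 without HFC pig 5. The whole span of PSME2, 5257 bases, lies within RNF31.

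PSME3, the nuclear relative of PSME1 and PSME2, and PSMF1, which encodes the PI31 protein that inhibits the core in vitro, were near 0. PSME3 had between 48.7 and 70.2 CPM (median 60.7) in the LFC pigs and between 54.3 and 70.8 CPM (median 62.2) in the HFC pigs. PSMF1 had between 102 and 129.6 CPM (median 112) in the LFC pigs and between 101 and 139.8 CPM (median 118) in the HFC pigs. The log2 fold changes were 0.06 ± 0.083 (SE) for PSME3 and 0.03 ± 0.078 (SE) for PSMF1.

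Another 6 proteasome genes without a deposited symbol were found by Ensembl ID (PSMA1, PSMA2, PSMA5 and PSMD9) or position (PSMG2 and PSMG4). All 6 had log2 fold changes below 0, from -0.30 to -0.16, and their unadjusted p ran from 0.0513 to 0.259. PSMA1, an alpha subunit, had between 49.7 and 94.4 CPM (median 72.9) in the LFC pigs and between 45.9 and 90.4 CPM (median 55.0) in the HFC pigs. HFC pigs were below the LFC median in 7 of 8 cases. Its log2 fold change was -0.30 ± 0.14 (SE), at an adjusted p of 0.433 (edgeR, Benjamini-Hochberg). PSMA8 and PSMB11, the subunits of testis and thymus, had 0 counts in every pig.

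Most proteasome genes varied together between pigs. LFC pigs 4 and 6 and HFC pig 5 were the 3 highest of the 16 pigs in 18 of the 38 genes, and in 5 genes none of them was among the 3 highest. HFC pig 5 was the highest HFC pig in 25 genes. These counts were made in the 38 genes only, and the shares over all genes tested were not counted. Outside the proteasome, 375 genes followed the mean of the 38 with a Pearson r of at least 0.9, centred within groups. The mean deviation of the 38 genes from the mean of all pigs was 0.33 in LFC pig 4, 0.25 in LFC pig 6 and 0.26 in HFC pig 5 on the log2 scale. It was lowest in HFC pigs 1 and 4, at -0.26 in each. The group means were 0.07 ± 0.16 (SD, n = 8) for LFC and -0.07 ± 0.17 (SD, n = 8) for HFC, and the distance between them was smaller than the SD of either group.

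**Figure D4:**
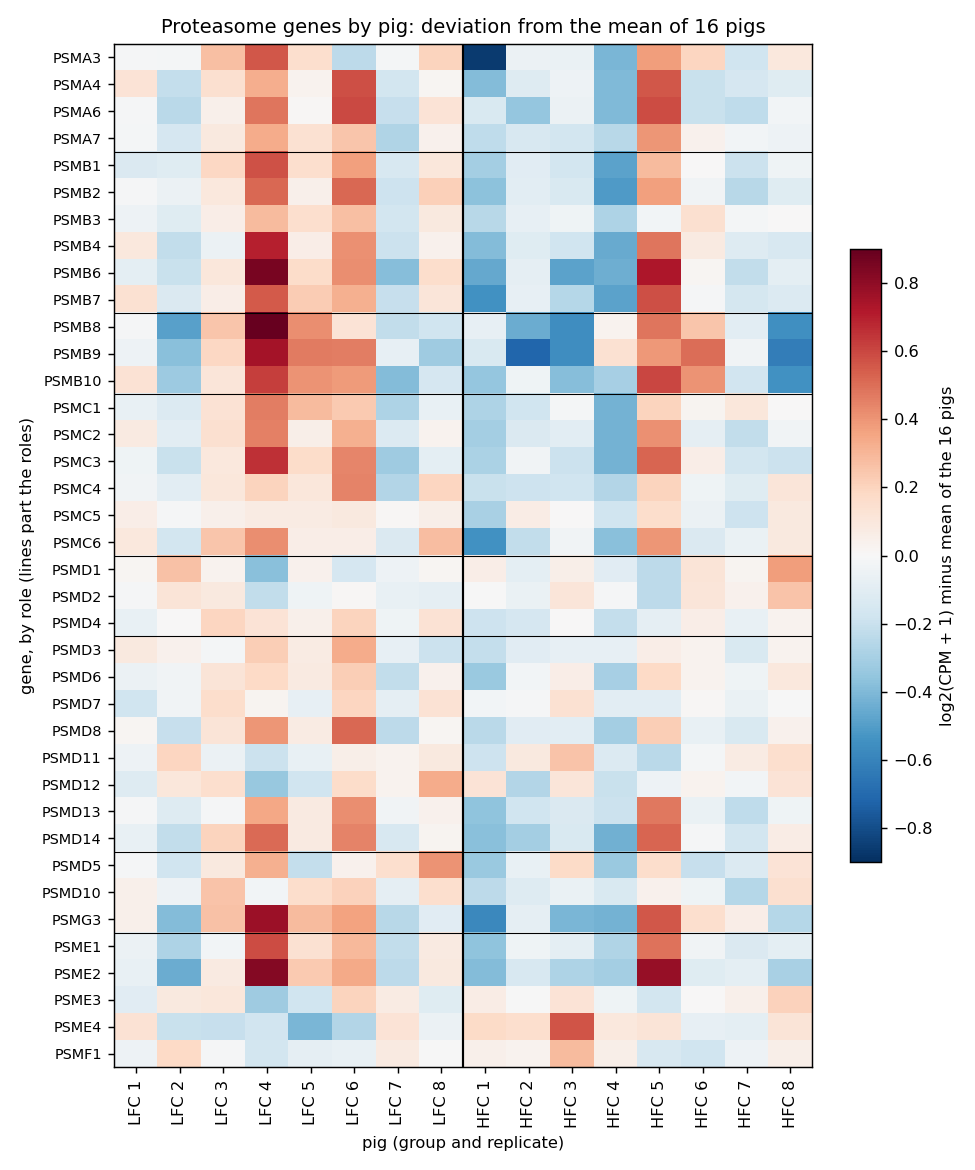
Deviation of log2(CPM + 1) from the mean of the 16 pigs (colour, red higher and blue lower) for the 38 proteasome genes (rows, by role) in every pig (columns). The columns of LFC pigs 4 and 6 and HFC pig 5 are mostly red, with mean deviations of 0.33, 0.25 and 0.26, and those of HFC pigs 1 and 4 mostly blue, at -0.26 in each.

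With the groups centred, the median Pearson r over the 703 pairs of proteasome genes was 0.53 across the 16 pigs, against -0.0037 over all pairs of genes tested, and 24.3% of the pairs had an r of at least 0.8 against 1.27% of all pairs. These values describe genes measured in the same libraries, which share their depth and scaling. PSMD14, PSMB1 and PSMA7 followed the other subunits most closely, with median r of 0.84, 0.83 and 0.82. In 7 genes, PSMF1, PSMD1, PSMD2, PSME3, PSME4, PSMD11 and PSMD12, the median r was negative, down to -0.54 in PSMF1. These 7 hold all 6 genes whose log2 fold change was above 0, besides PSMD12 at -0.04. Spread between pigs of a group was largest in PSMB9, PSMB8 and PSMB6, with SDs of 0.44, 0.43 and 0.39 on the log2 scale, and the median of the 38 genes was 0.22 against 0.28 of all genes.

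The same pigs stood apart in a property of the whole library. For each pig the slope of expression on gene span was computed, the change in log2 deviation per 10-fold longer span over 10890 genes with a known span. It was -0.27 in LFC pigs 4 and 6 and -0.21 in HFC pig 5, so short genes were relatively high in these libraries, and it was 0.21 in HFC pig 1. The group means were -0.06 ± 0.15 (SD, n = 8) for LFC and 0.06 ± 0.13 (SD, n = 8) for HFC. Across the 16 pigs the mean deviation of the 38 genes had a Pearson r of -0.956 and a Spearman rho of -0.921 with this slope, and the r was -0.957 within the LFC pigs and -0.947 within the HFC pigs. Without LFC pigs 4 and 6, the farthest from the median slope, r was -0.936. Both measures come from the same libraries and share their scaling, and the values are given as a description without a p-value.

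**Figure D5:**
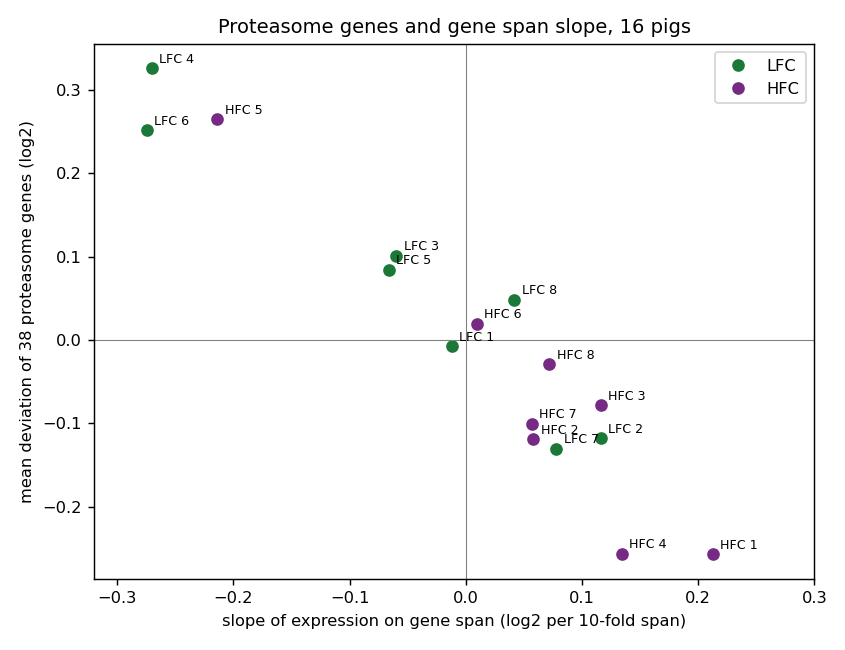
Mean deviation of the 38 proteasome genes (log2, vertical axis) against the slope of expression on gene span (log2 per 10-fold span, horizontal axis) in the 16 pigs, LFC green and HFC purple. The points fall from LFC pigs 4 and 6 and HFC pig 5 at the upper left to HFC pigs 1 and 4 at the lower right, with r = -0.956.

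Gene by gene, 24 of the 38 proteasome genes (63.2%) had an r of -0.7 or lower with the slope, against 13.2% of all genes tested. The strongest were PSMC3 at -0.96, PSMB4 at -0.94 and PSME1 at -0.94. The same 7 genes that ran against the others had positive r, from 0.31 in PSMD12 to 0.69 in PSMF1. Their median span in the genome was 38.7 kb, and that of the other 31 genes was 15.8 kb. Across the 38 genes the Spearman rho of span with the r on the slope was 0.385, but span did not sort every single gene. PSMD1 and PSME4, with 108 and 106 kb, had positive r, but so had PSMD2 with 16.2 kb and PSME3 with 11.08 kb, while PSMD14 with 103 kb and PSMB7 with 63.2 kb had r of -0.92 and -0.91. Across the 38 genes the Spearman rho of span with the log2 fold change was 0.19, and genes are not independent replicates.

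The TMM factors of LFC pigs 4 and 6 and HFC pig 5 were 0.884, 0.934 and 0.887, the first being the lowest of all pigs, and HFC pig 5 and LFC pig 6 had the lowest totals of counts. The blood markers HBB and ALAS2, 2 of the 3 on the list, summed to 1427 CPM in LFC pig 4 and 1045 CPM in HFC pig 5, the highest values of their groups, whose ranges were 277 to 1427 and 63.1 to 1045 CPM. In LFC pig 6 the sum was 651 CPM, whereas LFC pig 7 had 805 CPM of HBB alone and the lowest proteasome mean of the LFC pigs, at -0.13. Macrophage markers, all 6 of them tested, summed to 210 to 347 CPM in the LFC pigs and 116 to 408 CPM in the HFC pigs, and lymphocyte markers, 4 of 5, to 14.2 to 25.8 and 10.8 to 28.0 CPM. In LFC pigs 4 and 6 and HFC pig 5 both of these sums were within the range of the other pigs. The part of span slope, scaling, blood and immune cells in the levels of proteasome genes was not tested.

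The count of 5 genes at an unadjusted p of at most 0.05 moved with single pigs. It was 15 of 38 (39.5%) without HFC pig 5, 14 of them lower in the HFC pigs, and in that fit 25.8% of all genes had such a p. It was 1 (2.63%) without LFC pig 6, where 7.72% of all genes did, and 2 (5.26%) without LFC pig 4, where 7.56% did. It also lay between 1 and 3 without any single one of LFC pigs 3, 5 and 8 and HFC pigs 1, 2, 3, 4, 7 and 8, with shares of all genes from 7.27% to 10.6%. Without LFC pigs 4 and 6 and HFC pig 5 together it was 9 (23.7%) against 14.5% of all genes, the median log2 fold change was -0.13 and 31 of 38 genes were below 0. With 1 surrogate variable estimated from the data as a covariate, which was lowest in the same 3 pigs, the median was 0.0026, 18 of 38 genes were below 0 and 0 had an unadjusted p up to 0.05, against 4.59% of all genes. Single values moved as well: the log2 fold changes of 26 of the 38 genes changed by over 1.5 times without LFC pig 4, of 15 without LFC pig 6 and of 10 without HFC pig 5, and in 5 genes no single pig did so. No proteasome gene reached an adjusted p of at most 0.05 in any of these fits.

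Of 28 genes listed as proteasome partners (assembly factors, regulators, ubiquitin enzymes, shuttles, and subunits without a PSM symbol such as SEM1), 26 were tested. Of these 15 were lower and 11 higher in the HFC pigs, against 52.1% of all genes lower, with a median of -0.03, and 0 were called. At an unadjusted p of at most 0.05 (edgeR) were 2 lower genes, SEM1 and POMP (4.41% of all genes). In the other direction were UBE3C and NFE2L1, 2 higher genes (7.03% of all genes). POMP, the maturation factor of the core particle, had between 60.2 and 89.4 CPM (median 69.7) in the LFC pigs and between 47.5 and 90.9 CPM (median 57.2) in the HFC pigs. SEM1, a small subunit of the lid, had between 58.8 and 94.8 CPM (median 70.3) in the LFC pigs and between 41.6 and 77.2 CPM (median 62.0) in the HFC pigs. Both had a log2 fold change of -0.28, with 7 of 8 HFC pigs below the LFC median.

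NFE2L1 is the transcription factor that raises the expression of proteasome genes when the proteasome is inhibited. It had between 210.3 and 392 CPM (median 307) in the LFC pigs and between 243 and 428 CPM (median 379) in the HFC pigs. HFC pigs were above the LFC median in 7 of 8 cases. The 3 lowest of the 16 pigs were LFC pig 6 at 210.3 CPM, LFC pig 4 at 227 CPM and HFC pig 5 at 243 CPM, the pigs with the highest proteasome means, and the next pig had 290.5 CPM. The part of these 3 libraries in the difference of NFE2L1 was not tested. The log2 fold change was 0.29 ± 0.13 (SE), at an adjusted p of 0.431 (edgeR, Benjamini-Hochberg). UBE3C, a ubiquitin ligase bound to the proteasome, and UBA1, the main ubiquitin-activating enzyme, had log2 fold changes of 0.20 and 0.31, and the stress regulator NFE2L2 had -0.18.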

How the data were processed

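Whole pituitary RNA of 8 LFC and 8 HFC gilts was sequenced with a kit that does not keep the strand. The authors deposited unnormalized counts of reads per Ensembl gene of Sscrofa11.1. The submitters' processing notes name CASAVA 1.8.2, FastQC, RSEM, STAR and DESeq2, and which tool gave the counts is not given in the sources used here. The deposited comparison also holds group means, ratios, log2 ratios and p-values, of which none were used; it supplied IDs, symbols and positions. The label that gives the group is named for shear force, with the values low_FCR and high_FCR.

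Counts were scaled by TMM and filtered with filterByExpr in edgeR 4.0.16 (R 4.3.3), which left 13621 genes for quasi-likelihood F tests with a prior count of 2, Benjamini-Hochberg adjustment and no covariates. Standard errors came from the F statistic. The thresholds were an adjusted p of 0.05 and a fold change of 1.3. The ratio of inducible to constitutive subunits was compared by an exact two-sided permutation test; PSMB5 was not analysed here, so PSMB6 and PSMB7 stood for the constitutive subunits. Alternatives were DESeq2 1.42.0, limma 3.58.1 voom with sample quality weights, sva 3.50.0, other scalings and filters, a replicate block and each pig left out. Ratios and correlations were computed with scipy 1.17.1, pandas 2.3.3 and numpy 2.4.6 in Python 3.11.15. Only the edgeR test was checked on simulated data, which were drawn gene by gene without variation shared between genes.

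Genes named were all subunits by role, the catalytic subunits, activators and inhibitor, PSMA1, the 5 of lowest p in each direction, 3 partners in each direction and the 5 genes of most similar pattern. PSMA4, PSMA7, PSMC5, PSMD11 and PSMD14 and the interferon-induced genes were named after their values were seen. The members and lists were chosen with earlier results of these data known. Chi-square per degree of freedom between libraries of a group was 11.9 to 91.0, so none repeated another. Same-numbered pigs had correlations of deviations from -0.34 to 0.37, so the numbers did not pair them.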

Additional observations from a re-analysis of the deposited data

Results flagged for a closer look

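In 16 of the 78 groups of 8 pigs examined, the highest pig lay farther from the next one than Dixon's 95% critical value allows. Chance flags a single group about 1 in 20 times. The 78 groups are the same 16 pigs seen in genes that vary together, so the flags are not independent. Their number cannot be set against that rate, and the share over all genes was not counted. HFC pig 5 was the flagged pig in 12 genes. Its CPM was 82.9 for PSMB2 (next highest 62.4), 122 for PSMC2, 156 for PSMB7, 96.2 for PSMA4, 162 for PSMD13 and 76.1 for PSMD14. It was also 196 for PSMB6 (next highest 119.6), 138 for PSMA6, 214 for PSMC3, 98.5 for PSME2 (next highest 53.5), 209 for PSME1 and 201 for PSMA7. HFC pig 3 was that pig in 3 genes, with 78.9 CPM of PSME4 (next highest 59.7), 62.0 CPM of PSMD7 and 139.8 CPM of PSMF1. LFC pig 4 was that pig in 1 gene, with 32.6 CPM of PSMB8 (next highest 20.4).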

How the results depend on the processing

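In all 30 alternatives tried per gene, 0 values of a proteasome gene passed an adjusted p of 0.05, and the log2 fold change kept its sign in every one for 14 genes and in every one but the surrogate variable for 34. The count at an unadjusted p of at most 0.05 was 5 of 38, against 11.4% of all genes tested. With RLE scaling it was 3 (11.4% of all genes) and without a filter 3 (9.74%). It was 2 with 10 counts in 8 pigs (11.5%) and 2 with 10 counts in every pig (12.1%). With limma voom and sample quality weights it was 10 (18.6%). It was 0 with 1 surrogate variable (4.59%) or at p of at most 0.01 (2.28%). The pigs share only their replicate numbers, and none correlated best with its own number. With the replicate block the count was 3, against 10.3% of all genes. It ran from 1 to 15 with each pig left out, against 7.27% to 25.8% of all genes. It was 1 without LFC pig 6 or 8 or HFC pig 1, 2, 4 or 7. It was 2 without LFC pig 3, 4 or 5 or HFC pig 8, 3 without HFC pig 3 and 15 without HFC pig 5. Chosen after seeing the data, it was 13 without LFC pig 4 and HFC pig 5, against 19.4% of all genes. It was 9 without LFC pigs 4 and 6 and HFC pig 5, chosen likewise, against 14.5%. PSMD7 was at 0.0067 in that fit. DESeq2 called 29 genes of all genes. Of the genes at an unadjusted p of at most 0.05, 38.6% were lower in the HFC pigs, against 54.0% with total library size. The median ran from -0.21 to -0.09 with each pig left out (-0.09 without LFC pig 4 and -0.11 without LFC pig 6) and the number below 0 from 31 to 34. With 1 surrogate variable the median was 0.0026, 18 genes were below 0, and the log2 fold changes that turned were 0.00056 for PSMB7, 0.027 for PSMD8, 0.042 for PSMA4, 0.026 for PSMD13, 0.060 for PSMD14, 0.070 for PSMB4, 0.087 for PSMG3, 0.10 for PSMB6, 0.079 for PSMA6, 0.065 for PSMB8, 0.036 for PSMC1, 0.11 for PSMC3, 0.040 for PSMB9, 0.15 for PSME2, 0.13 for PSMB10, 0.12 for PSME1, 0.085 for PSMA7, 0.045 for PSMD6, -0.015 for PSMD2, -0.065 for PSMD1, -0.051 for PSMF1 and -0.058 for PSMD11. The cause was not tested. PSMD11 was at -0.010 with upper-quartile scaling and from -0.033 to 0.059 with pigs left out, PSMD7 from -0.067 to 0.0022, PSMD12 from -0.077 (without LFC pig 4 and HFC pig 5) to 0.023 and PSMF1 from -0.011 to 0.075. The difference in the ratio of inducible to constitutive subunits ran from -0.026 to 0.10 with each pig left out and was below 0 without LFC pig 8 or HFC pig 1, 4 or 6, and with matched pairs only it was 0.04 (exact permutation p = 0.798). With 6 further proteasome genes the median was -0.19. Depth limits PSMB9 most, with counts down to 26, and transcript lengths were not used here, so levels were not compared between genes.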

Other observations

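Outside the proteasome, the 5 genes whose variation between pigs was most like the mean of the 38 proteasome genes (Pearson r over 16 pigs, centred within groups) were ENY2 at 0.973, RPL27 at 0.972, ARL2BP at 0.971, MRPL39 at 0.969 and ARPC2 at 0.968. RPL27 and MRPL39 encode proteins of the cytosolic and mitochondrial ribosome, ENY2 a subunit of a transcription coactivator, ARPC2 a subunit of the actin-nucleating Arp complex and ARL2BP a binding partner of a small GTPase. Their log2 fold changes were -0.19, -0.18, -0.16, -0.30 and -0.14, and the r was at least 0.9 for 375 genes. These r share the libraries and their scaling. B2M, the light chain of MHC class I, had 4904 CPM in LFC pig 4 and 3070 CPM in HFC pig 5. Its CPM lay between 974 and 1901 in the other 14 pigs.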
